A study of Mus musculus with 7 samples.

Results

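TGF-beta ligands, their receptors and 1 feedback target were examined in primary neurospheres, free-floating clusters of cells grown from neural stem cells (NSCs), from the hippocampus of single mice. The set was 9 genes named by symbol (Tgfb1, Tgfb2, Tgfb3, Ltbp1, Tgfbr1, Tgfbr2, Tgfbr3, Eng and Smad7), all found among the 24346 genes of the table. The values are FPKM, fragments scaled to the length of the transcript and to the mapped fragments of the library, so levels can be compared between genes per unit of length. There were 4 control libraries (WT_116, WT_213, WT_215 and WT_220) and 3 Med23 CKO libraries (KO_117, KO_214 and KO_218), each from 1 mouse of the C57/BL6 strain aged 2 months, and per-library values below are given in that order. Med23 CKO mice carried Nestin-CreER and Med23 flox/flox, so that tamoxifen removes exons 5 to 7 of Med23 from cells in which the Nestin promoter is active. By the study's methods controls were littermates of genotype Med23 flox/+ or Med23 flox/flox, which the labels call wild type. Both groups were given tamoxifen at 200 mg/kg once a day for 5 days. The study states that Cre driven by Nestin is present in endothelial cells too, and no sort of the cells is described.

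TGF-beta ligands are secreted in a latent form, held by their own propeptide and, through it, by latent TGF-beta binding proteins such as Ltbp1 in the matrix. Freed ligand binds the type II receptor Tgfbr2, which recruits and phosphorylates the type I receptor Tgfbr1, and Tgfbr1 then phosphorylates Smad2 and Smad3. Tgfbr3 (betaglycan) and Eng (endoglin) are co-receptors that bind ligand without kinase activity, and Smad7 is induced by the signal and blocks the receptors. In the adult brain, TGF-beta is known to restrain the proliferation of neural stem cells and to maintain microglia.

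Tgfbr1 was the member whose groups did not overlap, with a mean 1.46 times that of controls in Med23 CKO neurospheres, and the other 8 members overlapped. None of the 9 genes passed the adjusted threshold. In 8 of the 9 genes the highest of the 7 values was in KO_214. How often that library was the highest over all genes tested is not given here. For Tgfb1, Tgfb3, Tgfbr3, Eng and Smad7 the difference turned negative when KO_214 was left out. Differences are in mean log2(FPKM + 1), Med23 CKO minus control, from limma's moderated test over the 14151 genes whose mean FPKM reached 0.5, adjusted over them by the Benjamini-Hochberg method. A fold change on this scale understates the change of low genes. All 9 members passed the filter. P-values set each difference against the spread between these libraries, 1 per mouse, in which mouse, culture and library preparation cannot be told apart.

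KO_214 and KO_117 lay at opposite ends in their makeup. KO_214 had the highest summed FPKM for markers of microglia and macrophages (1917.5, against 74.7 to 454.3 in controls). It was also the highest for endothelial cells (142.9, against 12.7 to 77.0) and for mural cells and fibroblasts (111.7, against 17.4 to 52.9). For 10 cell cycle genes it was the lowest (238.2, against 379.9 to 1016.8). KO_117 had the lowest sums for these cell types (74.5, 7.54 and 11.5 FPKM), the first close to 74.7 in WT_220. It had the highest sum for the cell cycle genes (1346.9). Neural stem cell markers, listed for the labelled cell type, summed to 971.4 to 2288.3 FPKM over the 7 libraries. Nes was at 61.1 to 240 FPKM and Fabp7, a large part of the sum, at 203 to 1560 FPKM. The markers of this list did not move together. In KO_214, Nes and Fabp7 had their lowest values and Gfap its highest (321 FPKM), so the sum alone does not settle the cell type. Oligodendrocyte lineage markers summed to 2235.2 to 4640.9 FPKM and neuroblast and neuron markers to 37.3 to 74.0 FPKM. Med23 itself had 10.1 to 12.9 FPKM in controls and 8.12 to 9.97 FPKM in Med23 CKO (difference -0.26 on the log2 scale, standard error 0.18, p = 0.0571 by exact permutation, two-sided), a value over the whole gene and not the deleted exons alone. Depth is unknown. In such bulk samples, fewer cells of a type and less RNA per cell cannot be told apart.

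**Figure D1:**
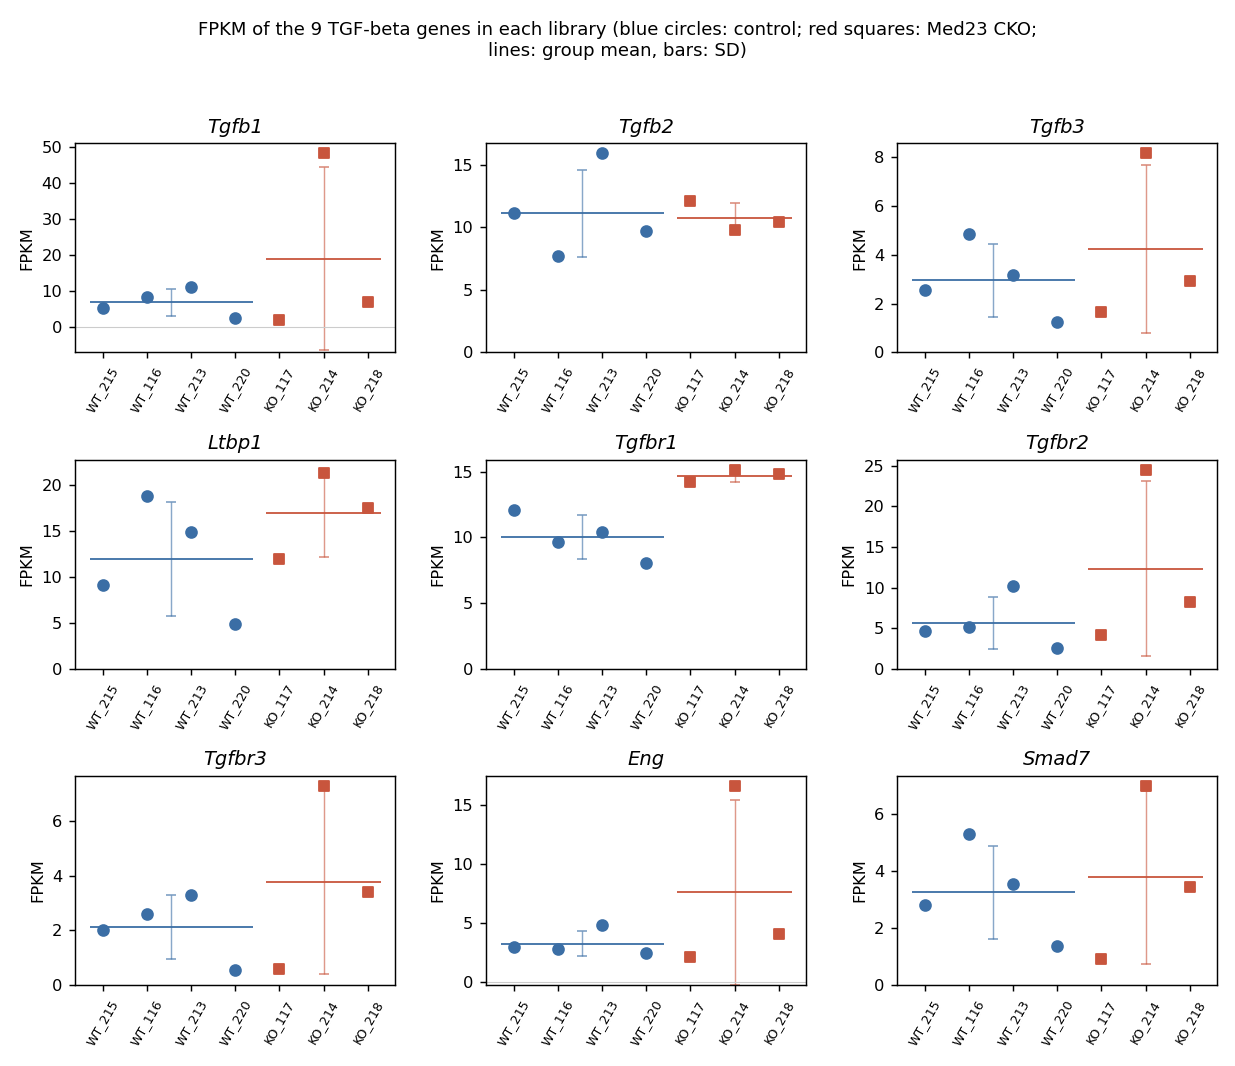
FPKM of each of the 9 genes (vertical axes, linear) in the 7 libraries (horizontal axes), with blue circles for control, red squares for Med23 CKO, lines for the group means and bars for the SD. The 3 Med23 CKO values of Tgfbr1, 14.2 to 15.1 FPKM, sit above its 4 control values, 8.03 to 12.1 FPKM, and KO_214 is the highest point in 8 of the 9 panels, Tgfb2 being the exception.

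Among the ligands, Tgfb2 had the highest mean in controls and differed little between the groups, whereas Tgfb1 had the widest range. Tgfb1, the ligand typical of immune cells, had 8.53, 11.2, 5.37 and 2.49 FPKM in controls and 1.89, 48.3 and 7.07 FPKM in Med23 CKO. Its lowest and highest values were both in Med23 CKO, 25.6 times apart. The difference was 0.55 (standard error 0.92, 95% interval -1.58 to 2.69, limma adjusted p = 1), or -0.56 without KO_214 and 1.48 without KO_117. The study named Tgfb1 and Tgfbr2 as upregulated from libraries of this series, with a stated control group smaller than the one used here, so their direction here is no independent evidence.

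Tgfb2, a ligand known from astroglia and neurons, had 7.71, 15.9, 11.1 and 9.71 FPKM in controls and 12.1, 9.8 and 10.4 FPKM in Med23 CKO. The Med23 CKO values lay within the range of the controls, and the difference was -0.01 (standard error 0.25, 95% interval -0.60 to 0.58). Tgfb3, the third ligand, had 4.84, 3.16, 2.56 and 1.26 FPKM in controls and 1.64, 8.15 and 2.93 FPKM in Med23 CKO. The groups overlapped, KO_214 being the highest and WT_220 the lowest, with a difference of 0.29 (standard error 0.48, 95% interval -0.84 to 1.42) that was -0.21 without KO_214.

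The makeup of the ligand pool varied widely within Med23 CKO. Tgfb1 made up 40.5%, 37.1%, 28.2% and 18.5% of the summed FPKM of the 3 ligands in controls and 12.1%, 72.9% and 34.8% in Med23 CKO. Tgfb2 held the largest share in WT_213, WT_215, WT_220, KO_117 and KO_218, and Tgfb1 in WT_116 and KO_214. The Tgfb1 share was 31.1% ± 9.84 (SD, n = 4) in controls and 39.9% ± 30.7 (SD, n = 3) in Med23 CKO, a difference of 8.86 percentage points (exact permutation test, two-sided, p = 0.686) that was -7.63 without KO_214. The sum of the ligands was 21.1, 30.3, 19.1 and 13.5 FPKM in controls and 15.6, 66.3 and 20.4 FPKM in Med23 CKO (exact permutation test, two-sided, p = 0.543).

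**Figure D2:**
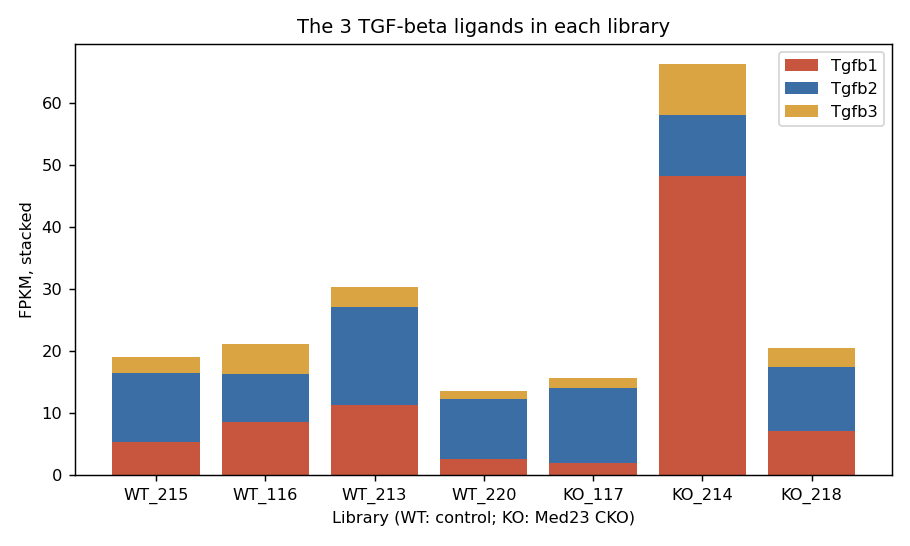
FPKM of Tgfb1 (red), Tgfb2 (blue) and Tgfb3 (yellow) stacked for each library (horizontal axis, with the vertical axis from 0). The blue part stays between 7.71 and 15.9 FPKM, and the red part runs from 1.89 FPKM in KO_117 to 48.3 FPKM in KO_214.

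Ltbp1, which holds the latent ligand in the matrix, had the highest mean of the 9 genes in controls. It exceeded Tgfb2, the next gene, in only 1 control library. Its values were 18.8, 14.9, 9.07 and 4.82 FPKM in controls and 11.9, 21.3 and 17.5 FPKM in Med23 CKO. The groups overlapped, since WT_116 and WT_213 exceeded KO_117. The difference of 0.58 (standard error 0.44, 95% interval -0.43 to 1.60) stayed above 0 with any single library left out, from 0.25 to 0.84.

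Of the signaling receptors, Tgfbr1 separated the groups and Tgfbr2 did not. Tgfbr1, the type I receptor kinase, had 9.62, 10.4, 12.1 and 8.03 FPKM in controls and 14.2, 15.1 and 14.8 FPKM in Med23 CKO. Each Med23 CKO library was above each control, and the Med23 CKO values lay closer to one another (SD 0.5 FPKM, n = 3) than those of controls (SD 1.71 FPKM, n = 4). The difference was 0.52 (standard error 0.19, 95% interval 0.09 to 0.95, limma unadjusted p = 0.0244, adjusted p = 1). The exact permutation test over the 35 assignments of 7 libraries to groups of 4 and 3 gave p = 0.0571, two-sided, where the smallest possible p is 0.0286. Over all genes tested, 0.784% had every Med23 CKO value above every control value and 1.53% had every one below, beside 1 and 0 of the 9 members. At an unadjusted p under 0.05, 1 of the 9 was higher and 0 were lower, beside 0.502% of all genes tested higher and 0.996% lower. After adjustment by limma's fit, 0 of the 9 and 0% of all genes passed 0.05. Leaving out single libraries gave differences of 0.43 to 0.61, with an unadjusted p of 0.0534 without WT_116, 0.0553 without WT_220, 0.0575 without KO_214 and 0.0556 without KO_218, and at most 0.0491 otherwise (limma).

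Tgfbr2, the type II receptor that binds the ligand first, had 5.19, 10.2, 4.6 and 2.53 FPKM in controls and 4.16, 24.5 and 8.25 FPKM in Med23 CKO. KO_214 had more than any other library, while KO_117 lay below WT_116, WT_213 and WT_215. The difference was 0.81 (standard error 0.59, 95% interval -0.56 to 2.18, limma adjusted p = 1), 0.18 without KO_214 and 1.33 without KO_117. The ratio of Tgfbr1 to Tgfbr2 FPKM was 1.85, 1.02, 2.64 and 3.17 in controls and 3.41, 0.619 and 1.8 in Med23 CKO. KO_214 was the one library in which the type II receptor exceeded the type I receptor, and the log2 ratio did not separate the groups (difference -0.355, exact permutation test, two-sided, p = 0.657).

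The co-receptors had their highest values in KO_214 and overlapped elsewhere. Tgfbr3, which presents Tgfb2 to the signaling receptors, had 2.59, 3.3, 2.03 and 0.543 FPKM in controls and 0.579, 7.29 and 3.42 FPKM in Med23 CKO. Its lowest values, in WT_220 and KO_117, came one from each group, and the difference of 0.41 (standard error 0.59, 95% interval -0.98 to 1.79) was -0.14 without KO_214. Eng, known mostly from endothelial cells, had 2.76, 4.8, 2.95 and 2.46 FPKM in controls and 2.12, 16.6 and 4.09 FPKM in Med23 CKO. Apart from KO_214 its values lay between 2.12 and 4.8 FPKM. The difference of Eng was 0.66 (standard error 0.56, 95% interval -0.65 to 1.96) and -0.06 without KO_214.

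Smad7, the inhibitory Smad that TGF-beta signaling induces, had 5.29, 3.53, 2.8 and 1.36 FPKM in controls and 0.926, 6.96 and 3.42 FPKM in Med23 CKO. The lowest and the highest value were both in Med23 CKO. The difference was 0.03 (standard error 0.52, 95% interval -1.19 to 1.25), -0.45 without KO_214 and 0.57 without KO_117, so that a change of 1 on the log2 scale in either direction lies within the interval.

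**Figure D3:**
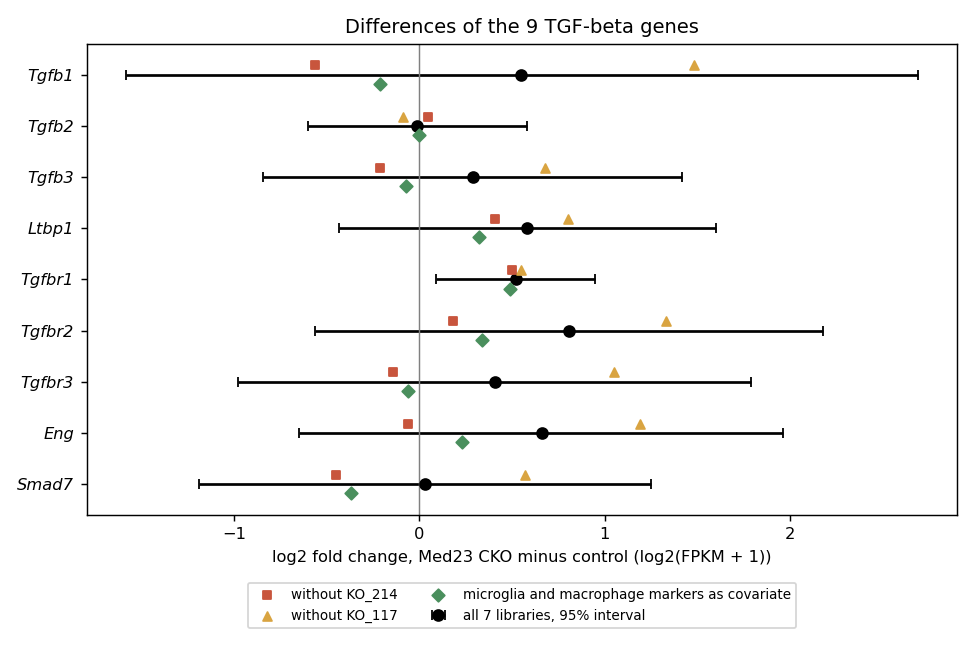
Difference of each gene in mean log2(FPKM + 1), Med23 CKO minus control (horizontal axis), with all 7 libraries (black circles, bars for the 95% interval of limma), without KO_214 (red squares), without KO_117 (yellow triangles) and with the microglia and macrophage markers as a covariate (green diamonds). The Tgfbr1 points lie together between 0.49 and 0.55, and those of Tgfb1 spread from -0.56 to 1.48.

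Ranked by mean level in controls, the order was Ltbp1 (11.9 FPKM), Tgfb2 (11.1), Tgfbr1, Tgfb1 (6.91), Tgfbr2 (5.63), Smad7 (3.25), Eng (3.24), Tgfb3 (2.95) and Tgfbr3 (2.11). For each of the 8 pairs of neighbours, the ranges over the 4 control libraries overlapped. The lowest of the 7 values was in WT_220 for 5 genes (Tgfb3, Ltbp1, Tgfbr1, Tgfbr2 and Tgfbr3), in KO_117 for 3 (Tgfb1, Eng and Smad7) and in WT_116 for Tgfb2. The median difference of the 9 genes was 0.52, beside -0.03 over all genes tested. Without KO_214 it was -0.06, where the median of all genes was -0.06 too and 4 of the 9 genes were higher. Without KO_117 the median of the 9 genes was 0.80, with 8 of them higher.

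The sequences upstream of Tgfbr1, the gene whose groups did not overlap, and of Tgfb1, Tgfbr2 and Eng, the 3 genes with the largest ratios of group means (2.76, 2.18 and 2.35), are shown to let their promoters be compared. These 3 ratios rest largely on KO_214, without which the log2 differences were -0.56, 0.18 and -0.06. By difference in mean log2(FPKM + 1), Ltbp1 (0.58) ranked above Tgfb1 (0.55), and its windows are not shown. Each is the 250 bases before an annotated start in RefSeq on GRCm38.p6, the assembly that mm10 names. Tgfbr1 has 2 such starts in the table used, and the one at the start of the gene is shown. Capitals mark matches on either strand to the GC box GGGCGG bound by Sp factors, the Ets core CCGGAAG, the AP-1 site TGANTCA, the Smad box CAGAC and the TATA box TATAAA. The Tgfbr1 window is chr4:47352972-47353221 on the forward strand, the Tgfb1 window chr7:25686752-25687001 on the forward strand, the Tgfbr2 window chr9:116175364-116175613 on the reverse strand, and the Eng window chr2:32646345-32646594 on the forward strand.
Tgfbr1: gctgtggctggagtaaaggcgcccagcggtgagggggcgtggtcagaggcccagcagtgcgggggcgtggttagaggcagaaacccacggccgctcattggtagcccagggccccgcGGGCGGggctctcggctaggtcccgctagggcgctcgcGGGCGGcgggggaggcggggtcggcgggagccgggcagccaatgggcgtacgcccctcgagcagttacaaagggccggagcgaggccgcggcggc
Tgfb1: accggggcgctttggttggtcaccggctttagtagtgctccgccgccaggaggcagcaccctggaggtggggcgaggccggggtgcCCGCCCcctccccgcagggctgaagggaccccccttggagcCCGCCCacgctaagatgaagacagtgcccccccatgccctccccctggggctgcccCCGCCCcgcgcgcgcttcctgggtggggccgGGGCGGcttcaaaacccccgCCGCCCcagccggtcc
Tgfbr2: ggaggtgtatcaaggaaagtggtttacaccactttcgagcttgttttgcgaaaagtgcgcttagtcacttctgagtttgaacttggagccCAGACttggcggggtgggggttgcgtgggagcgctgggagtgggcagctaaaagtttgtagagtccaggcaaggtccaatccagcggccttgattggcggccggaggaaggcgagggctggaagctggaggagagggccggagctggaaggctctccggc
Eng: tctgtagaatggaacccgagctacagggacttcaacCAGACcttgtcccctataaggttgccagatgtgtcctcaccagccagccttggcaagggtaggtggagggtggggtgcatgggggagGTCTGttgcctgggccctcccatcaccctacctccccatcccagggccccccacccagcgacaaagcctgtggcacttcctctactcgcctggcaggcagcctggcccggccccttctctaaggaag

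The windows of Tgfbr1 and Tgfb1 had a GC content of 74.8% and 75.2%, and those of Tgfbr2 and Eng 58.4% and 62.4%. Tgfbr1 had 2 GC boxes, starting at -133 and -95 from the gene start, and Tgfb1 had 5, against 0 in the windows of Tgfbr2 and Eng. The window of the other Tgfbr1 start, chr4:47385966-47386215, had 0 GC boxes, 1 Smad box at -203 and a GC content of 52.8%. A GC box was found in 32.7% of the 32851 windows of this length in the RefSeq table. The Smad box was found at -160 in the window of Tgfbr2 and at -214 and -127 in that of Eng, and in 42.2% of all windows. The Ets core (6.91% of all windows), the AP-1 site (6.75%) and the TATA box (12.4%) had no match in these 4 windows. These matches describe letters and not binding. The genes lie at 47353222 to 47414926 on chromosome 4 (Tgfbr1), 25687002 to 25705077 on chromosome 7 (Tgfb1), 116087695 to 116175363 on chromosome 9 (Tgfbr2) and 32646595 to 32682669 on chromosome 2 (Eng).

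Markers of microglia and macrophages, endothelial cells, and mural cells and fibroblasts were mostly highest in KO_214, the library highest for 8 of the members. Of 8 oligodendrocyte lineage markers and 8 neuroblast and neuron markers, 0 were highest in KO_214, and of 11 neural stem cell markers 3 were. Of 18 microglia and macrophage markers, 15 had their highest value in KO_214 and 16 their lowest in WT_220 or KO_117. The mean log2(FPKM + 1) of this list was 3.05, 3.44, 2.19 and 1.66 in controls and 1.67, 4.98 and 3.06 in Med23 CKO. Of the defining microglia markers, Cx3cr1 was at 0.0866 to 0.782 FPKM and P2ry12 at 0.434 to 1.6 FPKM over the 7 libraries. Tmem119 was at 0.0269 to 0.414 FPKM in controls and 4.04 FPKM in KO_214. Siglech, also on the list, was low in all libraries, from 0 FPKM in KO_117 to 0.134 FPKM in WT_116. KO_214 was thus not the highest library for Cx3cr1, P2ry12 or Siglech. Of 13 endothelial markers, 12 were highest in KO_214, with Pecam1 from 0.854 to 14.0 FPKM, Cdh5 from 0.703 to 27.6 FPKM and Kdr from 0.533 to 3.6 FPKM over the libraries. Of 10 mural cell and fibroblast markers, 9 were highest in KO_214, with Pdgfrb from 0.948 to 25.2 FPKM. At an adjusted p under 0.05 in limma, 0 of these markers passed. The microglia, endothelial and mural lists were highest in the same library, so their cell types cannot be told apart here. Gfap, from the neural stem cell list, was also highest in KO_214 (321 FPKM) and lowest in WT_220 (17.8 FPKM). The summed cell cycle genes were lowest in KO_214 and highest in KO_117. Differences in Gfap or in the cell cycle genes cannot be told apart from those of these cell types either.

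With the mean level of the microglia and macrophage markers as a covariate in limma, the difference of Tgfbr1 was 0.49 (unadjusted p = 0.0298). In the same fit that of Tgfb1 was -0.21, of Tgfb2 0.00, of Tgfb3 -0.07, of Tgfbr3 -0.06, of Smad7 -0.37, of Eng 0.23, of Tgfbr2 0.34 and of Ltbp1 0.32. Tgfbr1 had 0.50 with the endothelial markers, 0.48 with the mural cell and fibroblast markers and 0.51 with the cell cycle genes in their place. At an adjusted p under 0.05, 0 members passed in these fits. The covariates were chosen after the data were seen and come from the same libraries, so these fits cannot separate the part of other cell types. That part in the differences was not tested.

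**Figure D4:**
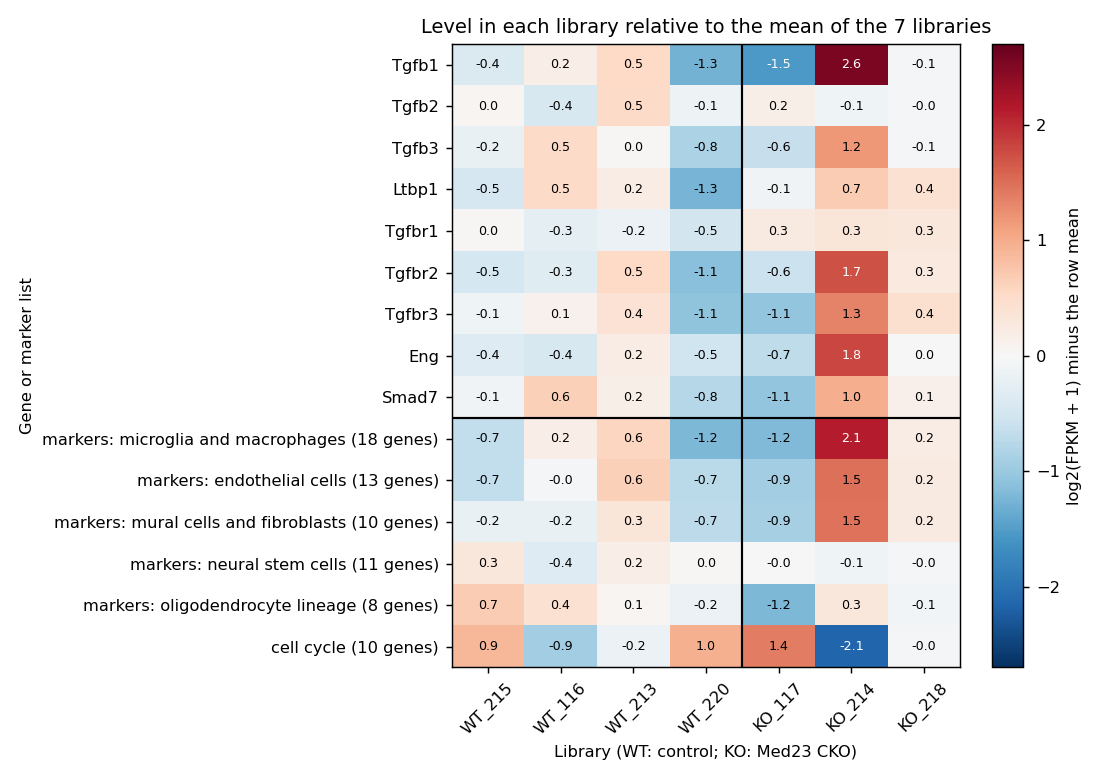
Mean-centred log2(FPKM + 1) of the 9 genes (upper rows) and of the mean of 6 gene lists (lower rows) in the 7 libraries, red above and blue below the row's mean. KO_214 is red and KO_117 and WT_220 are blue in the rows of Tgfb1, Tgfbr2, Tgfbr3, Eng and Smad7 and in those of the microglia, endothelial and mural lists, and KO_214 is blue in the cell cycle row.

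The wider TGF-beta pathway was described by 4 lists with 59 genes in all, of which 55 were tested. Of these, 41 were on average higher in Med23 CKO and 14 lower. At an unadjusted p under 0.05, 0 were higher and 3 lower (Fbn2, Itgb8 and Cdkn2b), beside 0.502% and 0.996% of all genes tested, and 0 passed the adjusted threshold from limma. All 3 Med23 CKO values were above all 4 control values for 1 gene (Snai1) and below for 2 (Itgb8 and Fkbp1a), beside 0.784% and 1.53% of all genes tested. KO_214 was the highest library for 31 of the 55. The shares of all genes tested that had a higher mean in Med23 CKO, or their highest value in KO_214, are not given here. The counts of 41 and 31 are therefore not read as particular to the pathway. The median difference over all genes tested was -0.03.

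In the list of ligand storage and activation, 13 of 15 genes were tested, 9 with a higher and 4 with a lower mean, and the median difference was 0.35 (-0.10 without KO_214). Fbn2, a microfibril protein of the matrix that stores latent complexes, had 8.31, 19.5, 51.0 and 43.7 FPKM in controls and 9.06, 2.06 and 3.4 FPKM in Med23 CKO. KO_117 overlapped with WT_116, and the difference was -2.33 (standard error 0.67, limma unadjusted p = 0.00924, adjusted p = 1). Itgb8, the integrin subunit that with Itgav frees latent TGF-beta, had 28.2, 31.7, 48.9 and 28.8 FPKM in controls and 11.5, 21.4 and 20.6 FPKM in Med23 CKO. Its groups did not overlap, with a difference of -0.92 (standard error 0.29, p = 0.0286 by exact permutation, two-sided, limma adjusted p = 1), between -1.07 and -0.65 with single libraries left out. Its partner Itgav had 22.7 to 64.5 FPKM in controls and 27.3 to 75.2 FPKM in Med23 CKO, and the protease Bmp1 had 36.3 to 41.4 and 26.0 to 56.9 FPKM. Lrrc32, which holds latent TGF-beta at the cell surface, had 0.819 to 3.65 FPKM in controls and 2.62, 23.4 and 3.78 FPKM in Med23 CKO, a difference of 1.27 (standard error 0.67) that was 0.42 without KO_214.

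Among 11 receptor partners, 8 had a higher and 3 a lower mean, with a median difference of 0.10 and 0 at an unadjusted p under 0.05. Fkbp1a, which binds type I receptors and keeps them inactive, had 296 to 378 FPKM in controls and 277 to 293 FPKM in Med23 CKO. Its groups did not overlap, and the difference was -0.16 (standard error 0.16, 95% interval -0.53 to 0.20, limma adjusted p = 1; exact permutation test, two-sided, p = 0.0571). Strap, an inhibitor that binds both receptors, had 84.3 to 114 FPKM in controls and 78.0 to 114 FPKM in Med23 CKO. Acvrl1, a type I receptor of endothelial cells (difference 0.62, standard error 0.69), and the adaptor Dab2 (0.74, standard error 0.59) had their highest values in KO_214, 9.77 and 27.9 FPKM, and their differences were -0.20 and 0.01 without it.

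The Smads and their regulators had the median nearest to 0 of the 4 lists, 0.04, with 10 of 13 tested genes higher and 3 lower. Smad2, a receptor-activated Smad, had 6.31 to 8.97 FPKM in controls and 7.38 to 10.6 FPKM in Med23 CKO (difference 0.18, standard error 0.20). Ppm1a, a phosphatase of the receptor-activated Smads, had 42.1 to 46.3 FPKM in controls and 39.0 to 51.5 FPKM in Med23 CKO, and the co-repressor Ski had 25.1 to 34.7 and 22.2 to 40.7 FPKM. The groups overlapped for all 3. The co-repressor Tgif1 ran from 2.82 to 14.2 FPKM in controls and from 1.91 to 23.2 FPKM in Med23 CKO, with a difference of 0.20 (standard error 0.79).

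The 18 induced targets had 14 genes with a higher and 4 with a lower mean and a median difference of 0.24, which was -0.55 without KO_214 and 0.93 without KO_117. In KO_214, 13 of the 18 had their highest value. Col3a1, a fibrillar collagen, had 0.307 to 1.66 FPKM in controls and 0.312, 38.4 and 1.55 FPKM in Med23 CKO, a difference of 1.33 (standard error 1.06) that was -0.15 without KO_214. The smooth muscle actin Acta2, typical of mural cells, had 5.17 to 54.3 FPKM in controls and 3.01, 178 and 28.3 FPKM in Med23 CKO. KO_214 was the highest library for both. Cdkn2b, an inhibitor of cell cycle kinases, had 20.1, 28.0, 26.6 and 40.0 FPKM in controls and 7.95, 25.9 and 10.3 FPKM in Med23 CKO. KO_214 lay within the controls and the other Med23 CKO libraries below them, with a difference of -1.05 (standard error 0.41, limma unadjusted p = 0.0337, adjusted p = 1), between -1.52 and -0.73 with single libraries left out. Klf10, an early response gene of TGF-beta, had 12.2 to 97.7 FPKM in controls and 9.55 to 29.4 FPKM in Med23 CKO (difference -1.38, standard error 0.71). Cdkn1a, another cell cycle inhibitor, had 324 to 520 FPKM in controls and 178 to 476 FPKM in Med23 CKO. Snai1, a transcription factor named here after its values were seen, had 0.464 to 0.893 FPKM in controls and 0.923 to 4.45 FPKM in Med23 CKO.

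**Figure D5:**
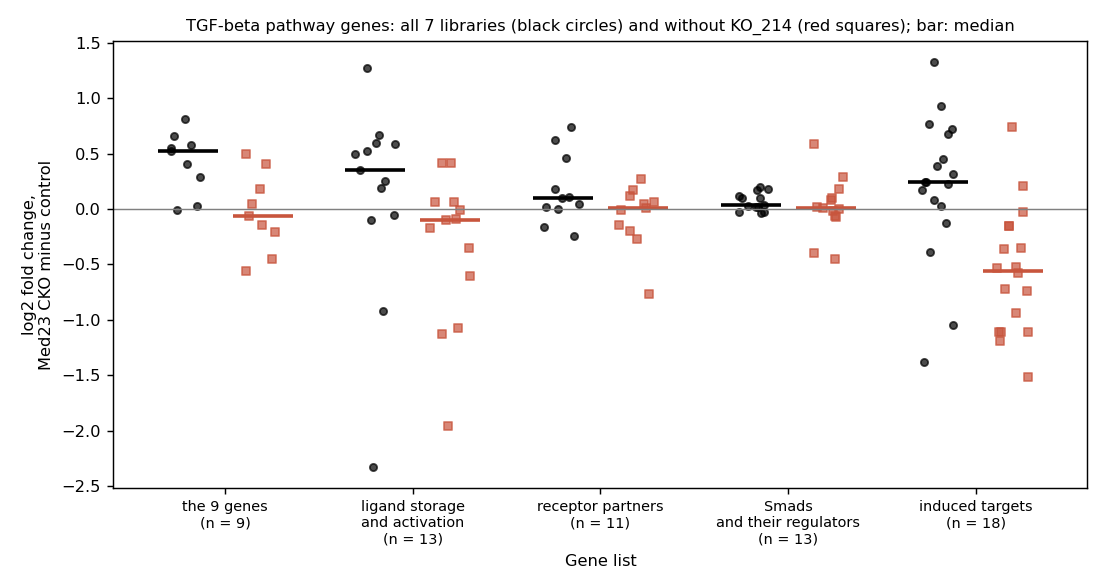
Difference of each tested gene in mean log2(FPKM + 1) (vertical axis) in the 9 genes and the 4 pathway lists (horizontal axis), with all 7 libraries (black circles) and without KO_214 (red squares), and bars for the medians. The median of the induced targets is 0.24 with all libraries and -0.55 without KO_214, and that of the Smads and their regulators is 0.04 and 0.01.

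The genes most like each member were taken as the 3 tested genes with the highest Pearson r of log2(FPKM + 1) over the 7 libraries. The points share their libraries and cell makeup, the genes were picked as the highest of 14151, and r is a description. For Tgfb1 these were Plau (urokinase, r = 0.999), Capg (0.997) and Cyba (0.997), the last a subunit of the phagocyte NADPH oxidase. For Tgfbr3 they were Nptn (0.997), Arhgef6 (0.995) and the Fc receptor Fcgr3 (0.995), and for Eng Pik3cg (0.997), A4galt (0.996) and Il21r (0.995). For Tgfbr2 they were Acsf2 (0.996), Sned1 (0.992) and Klf6 (0.991), for Tgfb3 AW112010 (0.995), Car13 (0.994) and Slc25a24 (0.994), and for Smad7 Stxbp2 (0.998), Galnt6 (0.998) and Tcta (0.997). Ltbp1 was most like Nacc2 (0.993), Stt3a (0.991) and Rnf19a (0.985). The genes near Tgfb2 included Dear1 (0.924) and Psmd12 (0.916), and those of Tgfbr1 were Ap3s1 (0.959), Efr3a (0.952) and Memo1 (0.941). Without KO_214, r of the pairs named was between 0.921 and 0.997.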

How the data were processed

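Primary neurospheres of 7 mice (4 control, 3 Med23 CKO) were compared, each library matched to its group by its title. The group size stated for sequencing is 3, without naming the control mice, and all 4 control libraries were kept. After adapter trimming, the authors mapped reads with Tophat (mm10) and deposited FPKM from Cuffdiff for each library and each group's mean. The log2 fold change, test score, p-value and q-value columns that the authors deposited for their own comparison were not used. Low FPKM values fell on no whole-read steps (between 21 pairs of libraries, no step of 0.05 log2 took more than 4.56% of low genes), so the depth is unknown.

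Values were analysed as log2(FPKM + 1) where the mean FPKM was 0.5 or more, with limma 3.58.1 in R 4.3.3 (lmFit, eBayes with trend, two-sided, Benjamini-Hochberg over 14151 genes). Tests were tried on simulated data. Exact permutation tests, two-sided, covered 35 assignments of libraries to groups. The labels do not say whether mice shared a culture date or litter. The methods place the tamoxifen a month earlier for cultures than the labels do. The members and gene lists were chosen with earlier results of these data known. Genes named from the pathway lists are those with an unadjusted p under 0.05, the 2 with the largest fold change and the 2 with the highest level in each list. No columns of unmapped samples were found (0). One gene among those most like Tgfb2 is not reported here. Alternatives were another pseudocount (0.1), other filters, scalings, variance models, weights, covariates and each library left out. Promoter windows came from a table of RefSeq starts in which 6 of the 9 members were matched, and Tgfb3, Tgfbr3 and Smad7 are named only.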

Additional observations from a re-analysis of the deposited data

Results flagged for a closer look

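In the control group, 43 values were screened for a library far from the other 3 by Dixon's 95% criterion, and chance alone marks about 1 in 20. Fkbp1a was marked because WT_116 had 378 FPKM against 296 to 307 FPKM in the other controls, and Itgb8 because WT_215 had 48.9 FPKM against 28.2 to 31.7 FPKM. No value of the 9 TGF-beta genes was marked in this way, and the group of 3 Med23 CKO libraries is too small for it.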

How the results depend on the processing

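Of 189 fold change values of the 9 genes under the alternatives, 159 had the sign of the reported value and 30 the other, and no member passed an adjusted p of 0.05 in any limma fit. Tgfbr1, Tgfbr2 and Ltbp1 were higher in Med23 CKO under each of the 20 fitted alternatives, Tgfbr1 at 0.46 to 0.56 apart from the libraries left out, with an unadjusted p between 0.0175 and 0.0429. Tgfb2 had a difference of 0.01 with quantile normalization, 0.02 with median centring, 0.01 with a term for the leading digit of the mouse numbers, 0.00 with the microglia markers and 0.03 with the cell cycle genes as covariates. Smad7 had -0.04 with a pseudocount of 0.1, and -0.37, -0.31, -0.37 and -0.23 with the microglia, endothelial, mural and cell cycle covariates. With the microglia, endothelial and mural covariates, Tgfb1 had -0.21, -0.12 and -0.25, Tgfb3 had -0.07, -0.02 and -0.07, and Tgfbr3 had -0.06, -0.01 and -0.09. These 4 covariates were added after the data were seen.

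Leaving out single libraries, the log2 fold change ran from -0.56 to 1.48 for Tgfb1, -0.15 to 0.17 for Tgfb2, -0.21 to 0.68 for Tgfb3, -0.14 to 1.05 for Tgfbr3, -0.06 to 1.19 for Eng, -0.45 to 0.57 for Smad7, -0.20 to 1.29 for Acvrl1, -0.15 to 2.31 for Col3a1 and -0.45 to 1.08 for Tgif1. The lowest value was without KO_214 for Tgfb1, Tgfb3, Tgfbr3, Eng and Smad7. The Tgfb1 share of the ligands differed by -7.63 to 22.8 percentage points and the log2 ratio of Tgfbr1 to Tgfbr2 by -0.918 to 0.312. The number of members higher at an unadjusted p under 0.05 was 0 to 3, being 3 (Tgfbr1, Tgfbr2 and Eng) without KO_117 and 0 without WT_116, WT_220, KO_214 or KO_218, and that of pathway genes 0 to 3 (3 without KO_117 and 2 without KO_218), with 1 under quantile normalization and 1 with the mouse number term. Over all genes at an unadjusted p under 0.05, there were 71 with a higher and 141 with a lower level. These counts were 99 and 119 with median centring, 102 and 123 with quantile normalization, 45 to 354 and 70 to 410 over the libraries left out (354 and 410 without KO_117, 45 and 79 without WT_215, 48 and 76 without WT_220, 139 and 70 without KO_218), and 193 and 887 with array weights. With no filter 140 were higher. At an adjusted p under 0.05 there were 0 genes, and 0 to 1 with a library left out (1 without KO_214 and 1 without KO_218). With array weights the median was -0.06 for ligand storage and activation, 0.03 for receptor partners, -0.09 for the Smads and their regulators and -0.07 for induced targets. Leaving out WT_220 gave medians of 0.18, -0.02, 0.00 and -0.04 for these lists. The cause of these shifts was not tested.

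No paired analysis was possible because the mouse numbers of the groups are not shared. The filter on low values was set on all 7 libraries. With 3 and 4 libraries per group, the intervals of Tgfb1 and Smad7 hold differences of over 2 times in either direction.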
